A study of Oryza sativa with 16 samples.

Results

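Of the 55801 loci in the flag-leaf count table of 2 rice genotypes, 66 were read in only 1 genotype by a rule on the counts themselves. A locus was taken when each of the 8 libraries of one genotype had at most 3 counts and the 8 libraries of the other averaged at least 10 counts. Loci of chromosomes 1, 4 and 11 were left out, which left 39795 loci, and 31 of these were read in DTY-IL alone and 35 in Swarna alone. With those chromosomes included the rule gave 82 and 67 loci. The loci were thus chosen by their counts in the 2 genotypes, so that the genotype difference is given as a description without a test, and only drought against control within the genotype that gave the counts was tested. The mean was taken over drought and control together, so a locus could reach it through 1 treatment alone. For such a locus the drought test is not free of the rule.

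DTY-IL is a drought-tolerant introgression line with fragments of the donor N22 in a Swarna background, and it stands here for 1 line. Swarna, the recipient parent, is a drought-sensitive South Asian *indica* variety. Drought plants underwent reproductive-stage drought stress (RDS) in greenhouse pots, with soil held at 75% of field capacity for 9 days and then at 50% for 3 days, and their flag leaves were frozen on day 12 of RDS. Control plants of both genotypes were watered throughout. Each of the 4 groups (DTY-IL drought, DTY-IL control, Swarna drought, Swarna control) had 4 biological replicates, which gave 16 libraries.

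An introgression line shares most of its genome with the recipient parent and differs from it in the fragments kept from the donor. Rice varieties differ in gene content as well as in sequence, so that a locus may be missing from a variety, silent in it, or too divergent for its reads to be assigned to the reference transcript. The transcripts used for quantification came from a *japonica* genome, so a locus at 0 can stand for each of these cases, and the cases cannot be told apart from counts. Identifiers give the chromosome in the 2 digits after LOC_Os and the order along it in the 5 digits after g. None of the identifiers was paired with a gene symbol, product or sequence in the tables used here, so the loci are called by identifier, and no flag-leaf marker could be checked.

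Library totals lay between 14250527 and 19367077 counts, so that 10 counts in 1 library stood for 0.516 to 0.702 CPM of its plain total. CPM is the count brought to a common library size, and levels below are CPM after scaling by the trimmed mean of M-values (TMM). In leaf tissue, fewer cells of a type and less RNA per cell cannot be told apart in such levels. The 31 loci read in DTY-IL alone summed to 2320 to 2863 counts in DTY-IL drought libraries and 1965 to 2609 in DTY-IL control libraries, against 15 to 17 in Swarna drought and 7 to 18 in Swarna control libraries. The 35 loci read in Swarna alone summed to 9 to 15 counts in DTY-IL drought and 11 to 12 in DTY-IL control libraries, against 1915 to 2625 in Swarna drought and 1773 to 2712 in Swarna control libraries. The few counts in the other genotype were thus found in all of its libraries, at 7 to 18 counts in each.

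**Figure D1:**
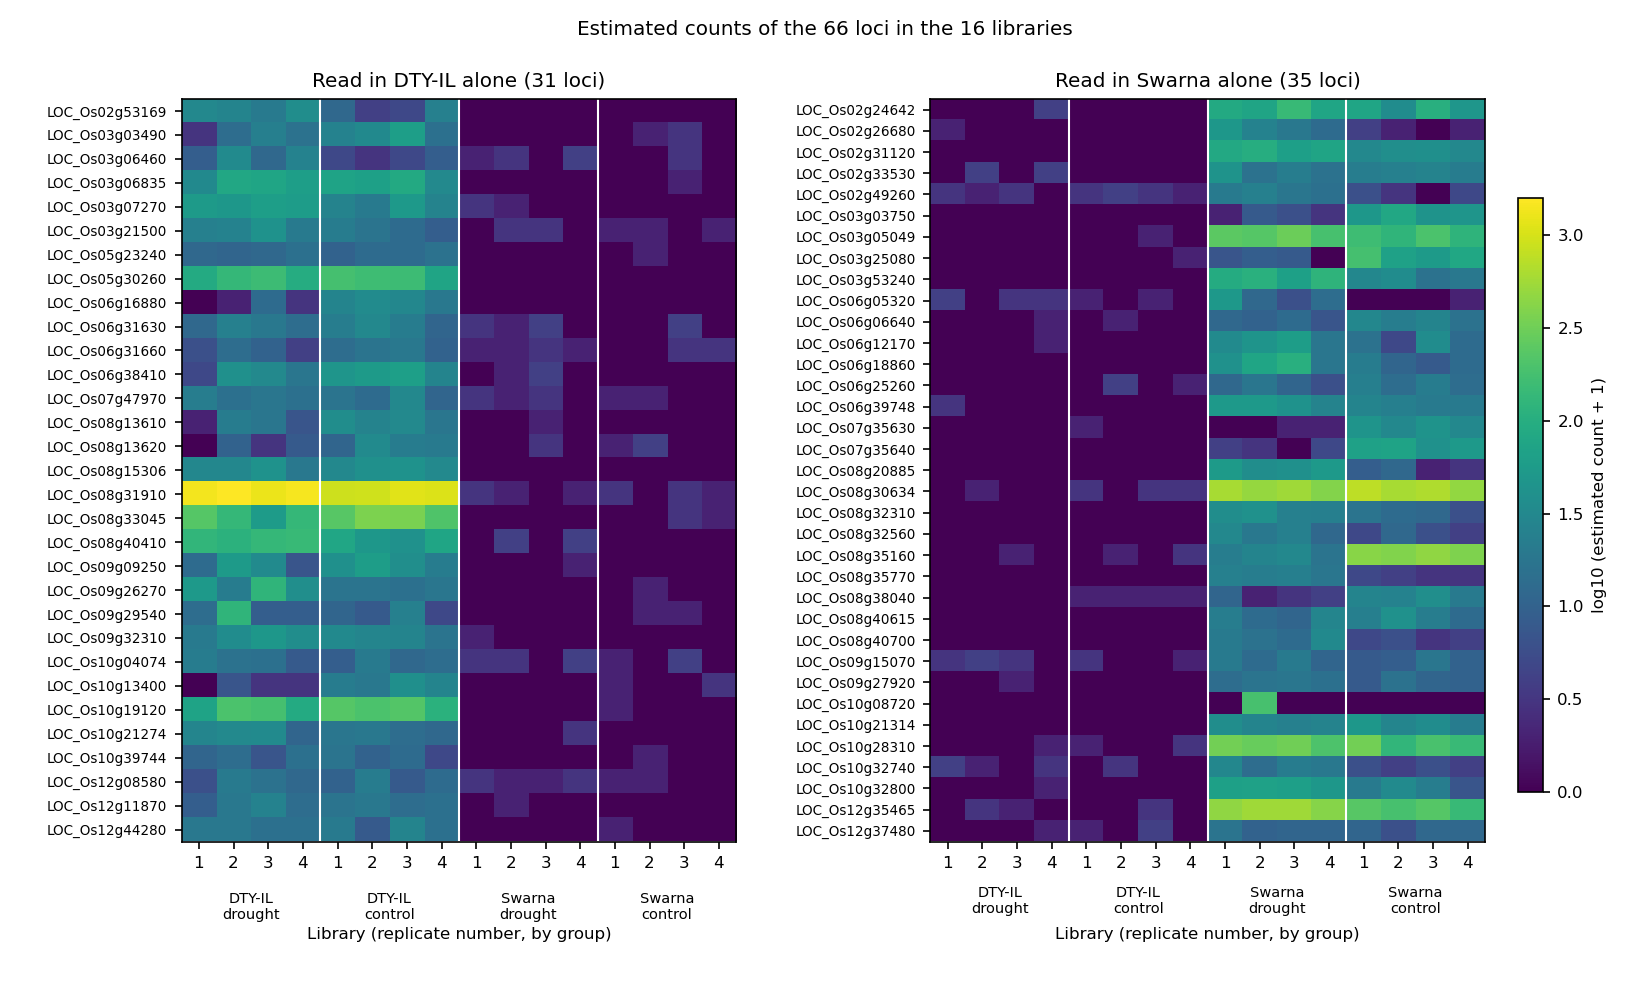
Estimated counts of the 66 loci in the 16 libraries, as log10 of the count plus 1 (colour), with loci in rows and libraries in columns by group. The 31 loci read in DTY-IL alone (left panel) are dark in the 8 Swarna libraries, the 35 read in Swarna alone (right panel) are dark in the 8 DTY-IL libraries, and LOC_Os10g08720 is bright in Swarna drought 2 alone.

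Most of these loci were read at a low level. The rule chose on these counts, with a fixed cap of 3 in the other genotype, so that the low level may come from the rule. The mean count over the 8 libraries of the genotype had a median of 20.1 for loci read in DTY-IL alone and 23.5 for loci read in Swarna alone. Among all loci with a mean of at least 10 counts on the same chromosomes the median was 222.9 in DTY-IL (14627 loci) and 228.2 in Swarna (14609 loci). Only 1 locus read in DTY-IL alone and 3 read in Swarna alone lay above that median. More than 3 counts in every one of the 8 libraries were found for 23 of 31 loci in DTY-IL and 21 of 35 in Swarna, against 94.1% and 92.4% of all loci with such a mean in those genotypes. These shares were not matched for count level. Identifiers that did not end in 0 made up 22.7% of the 66 loci and 8.20% of the loci with a mean of at least 10 counts in DTY-IL.

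LOC_Os08g31910 had by far the most counts of the 66. It had 1387, 1541, 1265 and 1428 counts in the 4 DTY-IL drought libraries and 916, 923, 1131 and 1082 in the 4 DTY-IL control libraries, against 0 to 2 in each Swarna library. In DTY-IL it averaged 77.6 ± 12.5 CPM under drought and 67.4 ± 8.87 CPM under control (SD, n = 4 each). The drought and control libraries overlapped on this scale, and edgeR's quasi-likelihood test gave a log2 fold change of 0.20 ± 0.16 (SE) with a Benjamini-Hochberg adjusted p of 0.343.

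LOC_Os08g33045 and LOC_Os10g19120 followed in DTY-IL. LOC_Os08g33045 had 226, 134, 56 and 135 counts in DTY-IL drought and 232, 368, 354 and 206 in DTY-IL control libraries, and 3 counts in all 8 Swarna libraries together. LOC_Os10g19120 had 71, 197, 177 and 90 counts in DTY-IL drought and 228, 196, 219 and 109 in DTY-IL control libraries, and 1 count in Swarna. In CPM the drought libraries of LOC_Os08g33045 all lay below its controls, while those of LOC_Os10g19120 overlapped with its controls. LOC_Os05g30260 had 90, 136, 154 and 94 counts in DTY-IL drought and 178, 161, 155 and 72 in DTY-IL control libraries, and 0 in every Swarna library. Its mean of 7.88 CPM in DTY-IL was at least 353-fold higher than the level that 3 counts over the 8 Swarna libraries would give. The others among the 8 highest in DTY-IL were LOC_Os08g40410, LOC_Os03g06835, LOC_Os03g07270 and LOC_Os06g38410, with means of 5.60, 3.80, 2.51 and 2.18 CPM over the 8 libraries.

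In Swarna the highest locus was LOC_Os08g30634. It had 0 to 2 counts in each DTY-IL library, against 600, 496, 557 and 405 in Swarna drought and 760, 606, 661 and 475 in Swarna control libraries. LOC_Os12g35465 had 0 to 2 counts in each DTY-IL library, against 460, 550, 559 and 416 in Swarna drought and 234, 187, 227 and 141 in Swarna control libraries. LOC_Os08g35160 had 0 to 2 counts in each DTY-IL library, against 22, 27, 30 and 16 in Swarna drought and 424, 391, 461 and 385 in Swarna control libraries. In CPM after TMM scaling the drought libraries did not overlap with the controls at any of these 3 loci. The drought libraries were lower at LOC_Os08g30634 and LOC_Os08g35160 and higher at LOC_Os12g35465. LOC_Os10g28310 and LOC_Os03g05049 averaged 14.2 and 11.5 CPM over the 8 Swarna libraries, and their drought and control libraries overlapped. The others among the 8 highest were LOC_Os02g24642, LOC_Os03g25080 and LOC_Os03g53240, at 4.71, 3.50 and 3.29 CPM. LOC_Os03g53240 had 0 counts in every DTY-IL library and was at least 147-fold lower in DTY-IL, with 3 counts over the 8 libraries as the floor.

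In all, 17 of the 66 loci had 0 counts in all 8 libraries of the other genotype, 4 of them read in DTY-IL alone and 13 in Swarna alone. A further 26 loci summed to 1 to 3 counts there and 23 to more than 3, with 13 counts as the highest sum, at LOC_Os02g49260. Under control LOC_Os02g49260 had 2, 3, 2 and 1 counts in DTY-IL and 5, 2, 0 and 4 in Swarna. LOC_Os06g05320 had 1, 0, 1 and 0 counts in DTY-IL control and 0, 0, 0 and 1 in Swarna control. Both reached the mean of 10 through Swarna drought libraries and were near 0 in the controls of both genotypes. They were not the only loci with few counts in Swarna control. Among others, LOC_Os02g26680 had 3, 1, 0 and 1 counts there, LOC_Os08g35770 4, 3, 2 and 2, and LOC_Os08g40700 4, 5, 2 and 3, with 0 in each DTY-IL control library. The 4 loci of DTY-IL at 0 in Swarna were LOC_Os02g53169, LOC_Os05g30260, LOC_Os06g16880 and LOC_Os08g15306, and the lower bounds for their levels in DTY-IL were 44.0-fold to 353-fold. For the 13 loci of Swarna at 0 in DTY-IL, the lower bounds for the difference were 27.7-fold to 147-fold. The bound of 50.1-fold at LOC_Os10g08720 rests on 1 library, Swarna drought 2, and is no measure of a genotype difference. All bounds use the mean CPM and leave out the spread between libraries. How reads of near-identical copies were divided between loci was not tested.

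The thresholds passed through a continuum of values. Just inside the mean threshold stood LOC_Os10g39744 and LOC_Os06g31660 with 10.5 and 10.75 counts in DTY-IL, and LOC_Os06g05320 and LOC_Os12g37480 with 10 and 10.25 counts in Swarna. Just outside stood LOC_Os06g46090 and LOC_Os07g30460 with 9.75 and 8.375 counts in DTY-IL, and LOC_Os10g08730 and LOC_Os09g17160 with 9.75 and 9.5 counts in Swarna. At the other threshold, 6 loci of DTY-IL and 8 of Swarna had a maximum of exactly 3 counts in the other genotype, among them LOC_Os08g40410 and LOC_Os06g38410 in DTY-IL and LOC_Os02g24642 and LOC_Os02g33530 in Swarna. Loci with a maximum of 4 counts numbered 3 and 7, among them LOC_Os02g33944 and LOC_Os12g31180 in DTY-IL and LOC_Os07g26460 and LOC_Os09g30980 in Swarna.

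All 31 loci read in DTY-IL alone had more than 3 counts in at least 1 drought and 1 control library. Of the 35 read in Swarna alone, LOC_Os02g26680, LOC_Os06g05320 and LOC_Os10g08720 had more than 3 counts in no Swarna control library, and LOC_Os07g35630 had more than 3 in no Swarna drought library. In 3 loci a single library held more than 50% of the counts, 1 of the 31 in DTY-IL and 2 of the 35 in Swarna. Among all loci with a mean of at least 10 counts on the same chromosomes there were 143 of 14627 in DTY-IL and 76 of 14609 in Swarna. These numbers were not matched for count level. LOC_Os10g08720 had 184 counts in Swarna drought 2 and 0 in each of the other 15 libraries, so that it entered the list through 1 library. The locus that missed the mean threshold by the least in Swarna, LOC_Os10g08730, follows it in identifier order and had all of its 78 counts in the same library. LOC_Os09g29540 had 13, 123, 8 and 8 counts in DTY-IL drought and 10, 7, 24 and 4 in DTY-IL control libraries, with 62.4% of its counts in DTY-IL drought 2. LOC_Os06g05320 had 50, 11, 5 and 13 counts in Swarna drought and 0, 0, 0 and 1 in Swarna control libraries, with 62.5% of its counts in Swarna drought 1. LOC_Os03g25080 and LOC_Os09g26270 came next, with 45.2% in Swarna control 1 and 41.2% in DTY-IL drought 3.

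DTY-IL control 3 differed from the other DTY-IL libraries in a way that touches the length of the Swarna list. In 13 loci it alone of the DTY-IL libraries had more than 3 counts, against 0 to 3 such loci for each other DTY-IL library and 0 to 4 for each Swarna library. These 13 loci had 26 to 161 counts in DTY-IL control 3, which was 59.6% to 175% (median 133%) of the mean CPM in Swarna control, and they averaged at most 0.75 counts in Swarna drought. Without DTY-IL control 3 they would join the list, and 48 loci in place of 35 would be read in Swarna alone. What sets this library apart was not tested.

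The 66 loci were spread over 9 chromosomes and their number was highest on chromosome 8. Chromosome 8 held 6 loci read in DTY-IL alone and 9 read in Swarna alone, which were 0.447% and 0.667% of its loci with a mean of at least 10 counts in the same genotype. Chromosomes 6 and 10 held 10 loci each, at 4 and 6 and at 5 and 5 for DTY-IL and Swarna, and as a share the 5 loci of DTY-IL on chromosome 10 (0.471%) exceeded those on chromosome 8. Chromosome 3 held 9 loci, at 5 and 4, and chromosome 9 held 6, at 4 and 2. The remaining ones were on chromosomes 2 (1 and 5), 12 (3 and 2), 7 (1 and 2) and 5 (2 and 0).

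Counted in identifier order, 12 of the 66 loci stood within 20 loci of another one, in 6 pairs, and no 3 followed each other at that distance. LOC_Os07g35630 and LOC_Os07g35640 were next to each other and both were read in Swarna alone, and LOC_Os08g13610 and LOC_Os08g13620 were next to each other and both were read in DTY-IL alone. Between LOC_Os06g31630 and LOC_Os06g31660 (DTY-IL) stood 2 other loci, between LOC_Os10g32740 and LOC_Os10g32800 (Swarna) 5, and between LOC_Os08g40615 and LOC_Os08g40700 (Swarna) 8. The remaining pair joined both directions, with LOC_Os10g21274 read in DTY-IL alone, LOC_Os10g21314 in Swarna alone and 6 loci between them. Up to 50 loci between neighbours gave 9 groups with 22 loci, 4 of them with both directions.

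**Figure D2:**
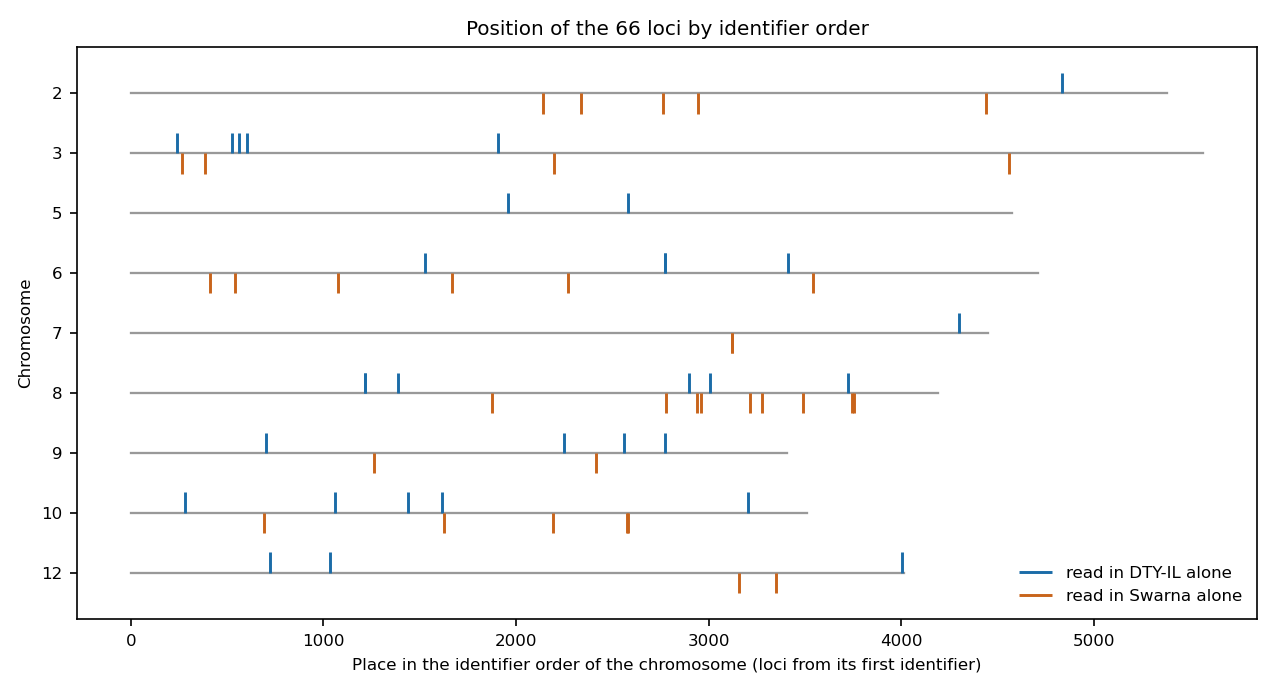
Place of the 66 loci along 9 chromosomes, as the rank in identifier order (horizontal axis), with loci read in DTY-IL alone drawn above each line and loci read in Swarna alone below it. On chromosome 8, 11 of the 15 loci lie between LOC_Os08g30634 and LOC_Os08g40700.

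On chromosome 8 the stretch bounded by LOC_Os08g30634 and LOC_Os08g40700 held 11 of the 15 loci (3 of DTY-IL and 8 of Swarna) in 974 of the 4188 loci of the chromosome. LOC_Os03g03490 and LOC_Os03g07270 bounded 6 of the 9 loci of chromosome 3 in 363 loci. LOC_Os09g26270 and LOC_Os09g32310 bounded 4 of the 6 loci of chromosome 9 in 523 loci. These stretches were drawn after the positions were seen. Other tested loci inside them were called between DTY-IL and Swarna, in either treatment, at 16.2%, 12.3% and 18.6%, against 7.89%, 8.23% and 9.73% on the rest of chromosomes 8, 3 and 9.

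The neighbours of the 66 loci were not used by the rule. Of 607 tested loci among the 5 on each side, 94 (15.5%) were called between DTY-IL and Swarna in at least 1 treatment by edgeR's quasi-likelihood test (adjusted p at most 0.05, log2 fold change at least 1 in size), against 8.96% of the 20122 tested loci on these chromosomes. Under RDS the share was 10.9% of the neighbours against 5.69% of all, and under control 7.58% against 4.49%. Directly before and after a member the share was 28.6% and 20.6%, and at 2 to 20 loci away it lay between 1.61% and 22.2%. The neighbours were not alike among the 66 loci, since 19 had none called, 32 had 1 or 2 and 15 had at least 3 of 10. LOC_Os08g32310 had the most, with 6, followed by LOC_Os08g32560 with 5, and both lie in the stretch of chromosome 8. Neighbouring loci are not independent of each other, and no test was made of these shares.

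**Figure D3:**
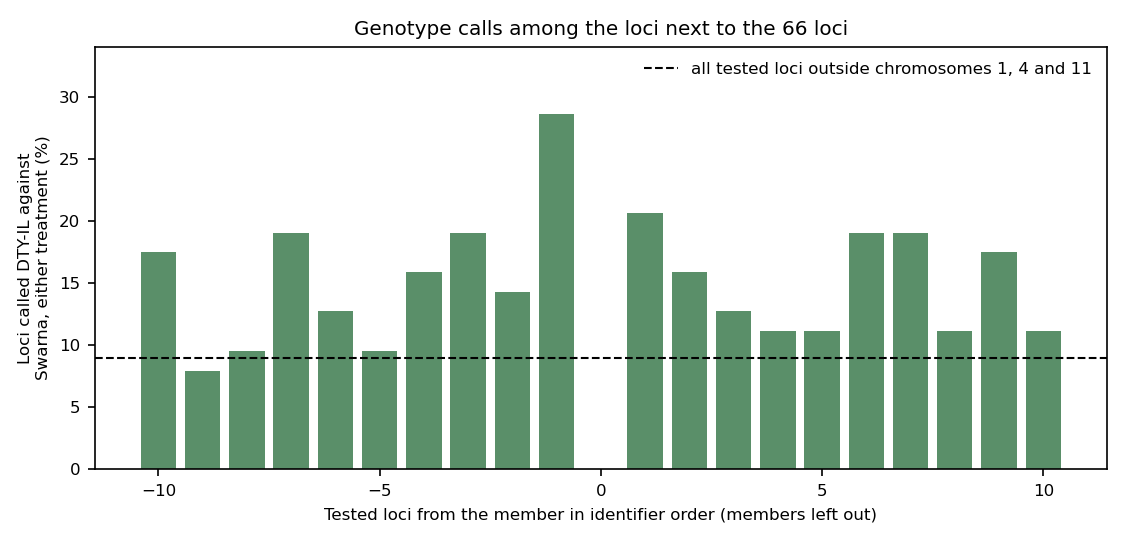
Share of tested loci called between DTY-IL and Swarna in either treatment (vertical axis, %) by the distance in tested loci from each of the 66 loci (horizontal axis), which are themselves left out, so that a locus between neighbouring members counts at more than 1 distance. The bars at 1 locus before and after stand at 28.6% and 20.6%, above the dashed line at 8.96% for all tested loci on these chromosomes.

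Drought changed 8 of the 31 loci in DTY-IL (25.8%), with 2 higher and 6 lower (3 higher and 3 lower when scaled by library size alone). A call needed an adjusted p of at most 0.05 over all 28283 loci tested and a log2 fold change of at least 1 in size. The same rule called 23.5% of all loci tested in DTY-IL, 25.7% of those averaging 10 counts or more on these chromosomes and 36.6% of those with a mean of 10 to 50 counts there. By direction it called 12.0% of all loci tested higher and 11.5% lower, against 6.45% and 19.4% of the 31. Of the loci with a mean of 10 to 50 counts it called 21.5% higher and 15.1% lower. The split by direction was not tested. The 25 loci of the list with such a mean had 7 called (28.0%). In both directions together the share of called loci was thus near that of other loci. The median log2 fold change of the 31 was −0.26, against 0.03 over all loci tested. Drought and control libraries did not overlap in 8 of the 31 (25.8%), against 35.0% of all loci tested and 42.6% of those averaging 10 counts or more on these chromosomes. The shares without overlap were not matched for count level.

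LOC_Os10g13400 was the most strongly changed locus of DTY-IL. It had 0, 6, 2 and 2 counts in DTY-IL drought and 21, 18, 38 and 27 in DTY-IL control libraries, and its level fell to 0.142 ± 0.152 CPM under drought, against 1.71 ± 0.459 CPM under control (SD, n = 4 each). Every drought library lay below every control, with a log2 fold change of −3.56 ± 0.66 (SE) and an adjusted p of 0.00057 in edgeR's quasi-likelihood test with Benjamini-Hochberg adjustment. LOC_Os06g16880 had 0, 1, 12 and 2 counts in DTY-IL drought and 27, 34, 29 and 18 in DTY-IL control libraries, without overlap in CPM (log2 fold change −3.12 ± 0.72, edgeR adjusted p 0.00456). LOC_Os08g33045, whose counts are given above, fell to 7.68 ± 3.93 CPM under drought, against 18.99 ± 4.19 CPM under control (SD, n = 4 each; log2 fold change −1.31 ± 0.35, edgeR adjusted p 0.00829). It was the only locus of DTY-IL called without overlap whose mean count reached 20.

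The adjacent loci LOC_Os08g13610 and LOC_Os08g13620 were both lower under drought. LOC_Os08g13610 had 1, 21, 17 and 6 counts in DTY-IL drought and 36, 26, 31 and 17 in DTY-IL control libraries. LOC_Os08g13620 had 0, 9, 2 and 7 counts in DTY-IL drought and 10, 33, 21 and 19 in DTY-IL control libraries. In CPM no drought library of either locus reached a control, and DTY-IL drought 1 was the lowest of both, with log2 fold changes of −1.55 ± 0.58 and −2.41 ± 0.75 and edgeR adjusted p values of 0.0474 and 0.0159. LOC_Os03g03490 was called lower although its drought and control libraries overlapped (2, 13, 23 and 15 counts in DTY-IL drought, 25, 32, 61 and 14 in DTY-IL control, log2 fold change −1.55, edgeR adjusted p 0.0387).

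Both loci called higher in DTY-IL overlapped between treatments. LOC_Os09g26270 had 53, 21, 122 and 37 counts in DTY-IL drought and 16, 16, 14 and 17 in DTY-IL control libraries (log2 fold change 1.53 ± 0.45, edgeR adjusted p 0.0135). LOC_Os03g06460 had 8, 33, 11 and 25 counts in DTY-IL drought and 4, 2, 4 and 8 in DTY-IL control libraries (log2 fold change 1.81 ± 0.66, edgeR adjusted p 0.0363). The rise was uneven in both, with DTY-IL drought 3 far above the others at LOC_Os09g26270.

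The count of 8 depended on single libraries. It was 5 without DTY-IL control 1, 4 without DTY-IL control 2, 5 without DTY-IL control 3 and 5 without DTY-IL drought 4. LOC_Os03g03490 lost its call without any one of DTY-IL controls 1, 2 and 3 or DTY-IL droughts 1, 2 and 4 (edgeR adjusted p 0.0541 to 0.140). LOC_Os03g06460 lost it without any one of DTY-IL controls 1, 2 and 3 or DTY-IL droughts 2 and 4 (edgeR adjusted p 0.0766 to 0.120). LOC_Os08g13610 lost it without any one of DTY-IL controls 1, 2 and 3, DTY-IL droughts 1, 3 and 4 or Swarna droughts 3 and 4 (edgeR adjusted p 0.0530 to 0.122). LOC_Os08g13620 lost it without DTY-IL control 2 (edgeR adjusted p 0.0586) and LOC_Os09g26270 without DTY-IL drought 3 (edgeR adjusted p 0.0756). LOC_Os10g13400, LOC_Os06g16880 and LOC_Os08g33045 kept their calls whichever library was left out, but LOC_Os08g33045 fell short of the fold threshold when scaled by library size alone (log2 fold change −0.92). Under that scaling LOC_Os03g03490 and LOC_Os08g13610 were not called either (edgeR adjusted p 0.115 and 0.135), and LOC_Os08g13610 was not called by DESeq2 (adjusted p 0.0595) or with the 8 DTY-IL libraries alone (edgeR adjusted p 0.0557).

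**Figure D4:**
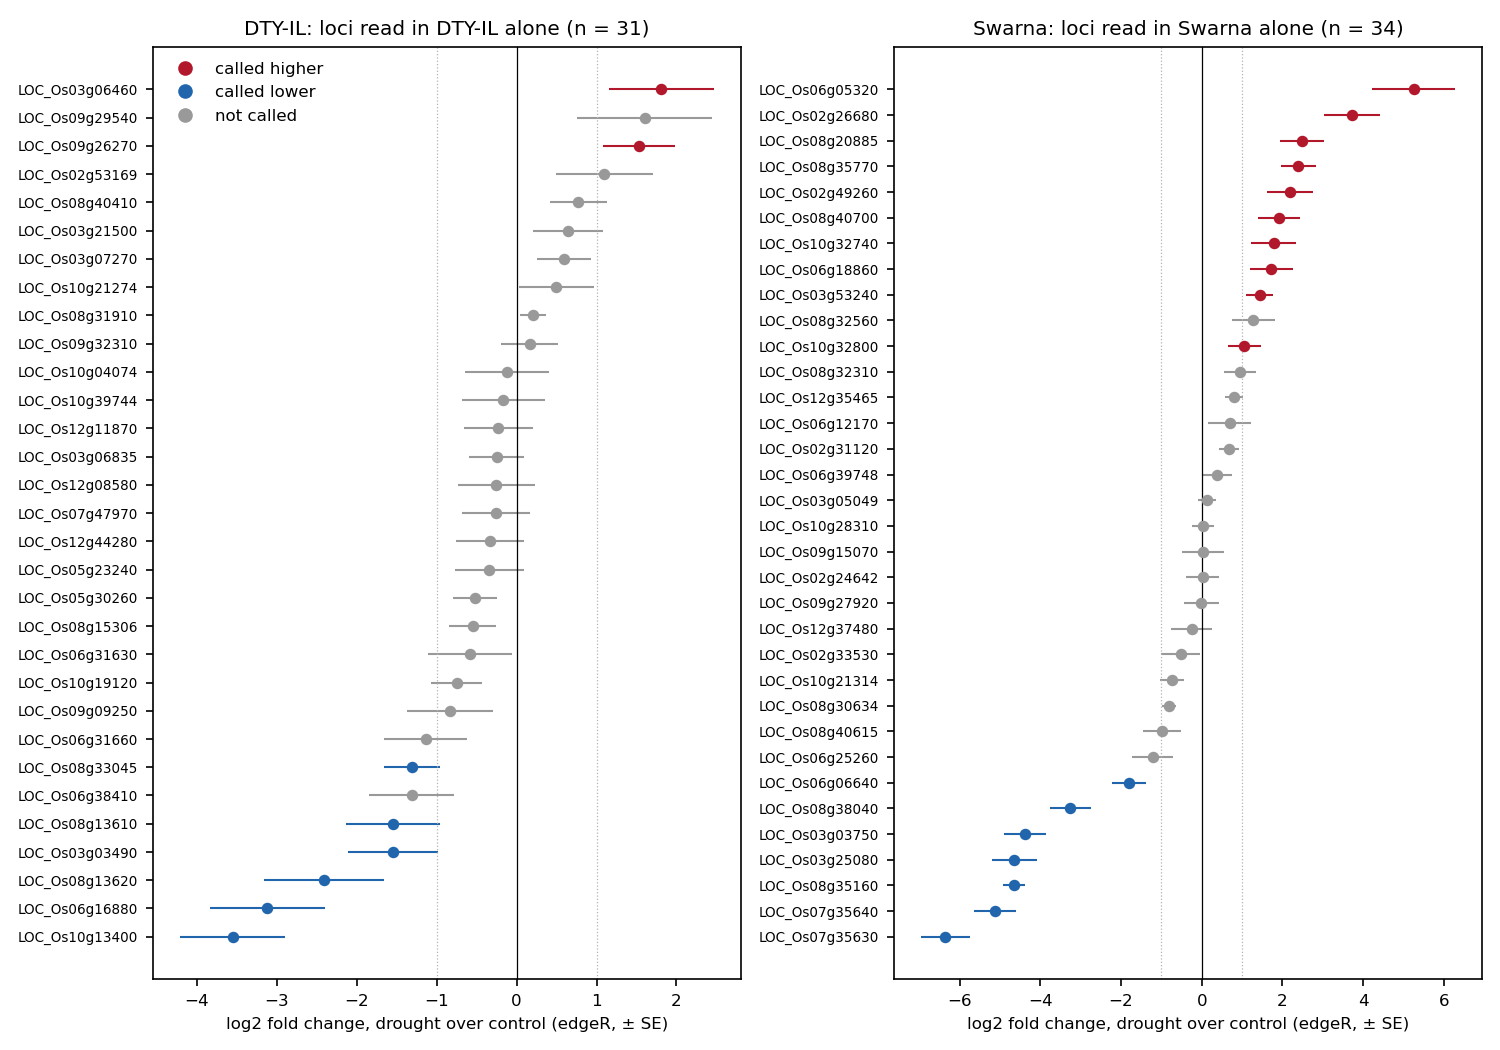
Fitted log2 fold change, drought over control, with its standard error (horizontal axis, edgeR) for the 31 loci read in DTY-IL alone within DTY-IL (left panel) and for 34 of the 35 loci read in Swarna alone within Swarna (right panel; LOC_Os10g08720, with counts in 1 library, is left out). Dotted lines mark a log2 fold change of 1 in either direction. The DTY-IL values lie between −3.56 and 1.81 and the Swarna values between −6.35 and 5.25, and the panels have different scales.

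In Swarna drought changed 17 of the 35 loci (48.6%), with 10 higher and 7 lower (17 higher and 7 lower when scaled by library size alone). The same rule called 32.6% of all loci tested in Swarna, 34.6% of those averaging 10 counts or more on these chromosomes and 47.6% of those with a mean of 10 to 50 counts there. The 26 loci of the list with such a mean had 14 called (53.8%), near the share of other loci at that level. By direction the rule called 15.2% of all loci tested higher and 17.3% lower, against 28.6% and 20% of the 35. Of the loci with a mean of 10 to 50 counts it called 25.2% higher and 22.4% lower. The split by direction was not tested. The median log2 fold change of the 35 was 0.14, against 0.06 over all loci tested, and its median size without regard to sign was 1.28, against 0.64 for loci averaging 10 counts or more on these chromosomes, most of which had far more counts. Over a mean of 10 to 50 counts it was 1.75 for 26 loci of the list and 1.02 for the 3125 loci of these chromosomes, and this difference was not tested. The 26 include loci that reached the mean through 1 treatment, such as LOC_Os06g05320, LOC_Os02g26680 and LOC_Os07g35630 (log2 fold changes 5.25, 3.72 and −6.35). They also include LOC_Os10g08720, with counts in 1 library. The median size of the list is thus not free of the rule. Drought and control libraries did not overlap in 20 of the 35 (57.1%), against 46.8% of all loci tested and 55.7% of those averaging 10 counts or more on these chromosomes, again not matched for count level. The 2 lists hold different loci measured in different plants, and the difference between their shares was not tested.

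The 7 loci called lower in Swarna were read mainly in control leaves. LOC_Os08g35160 fell to 1.20 ± 0.334 CPM in Swarna drought, against 30.4 ± 2.88 CPM in Swarna control (SD, n = 4 each), and all 4 drought libraries lay far below the controls. Its log2 fold change was −4.66 ± 0.27 (SE), with an edgeR adjusted p of 3.54e-10. LOC_Os03g25080 had 6, 8, 7 and 0 counts in Swarna drought and 182, 67, 54 and 79 in Swarna control libraries (log2 fold change −4.64 ± 0.56, edgeR adjusted p 6.46e-06). LOC_Os03g03750 had 1, 7, 5 and 2 counts in Swarna drought and 49, 82, 43 and 46 in Swarna control libraries (log2 fold change −4.38 ± 0.51, edgeR adjusted p 1.9e-05). Swarna control 1 was the highest library at LOC_Os03g25080 and Swarna control 2 at LOC_Os03g03750, and neither locus had a drought library near its controls.

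The adjacent loci LOC_Os07g35630 and LOC_Os07g35640 had nearly all of their counts in control leaves. LOC_Os07g35640 had 3, 2, 0 and 4 counts in Swarna drought and 67, 71, 40 and 51 in Swarna control libraries (log2 fold change −5.12 ± 0.52, edgeR adjusted p 6e-06). LOC_Os07g35630 had 0, 0, 1 and 1 counts in Swarna drought and 44, 30, 43 and 30 in Swarna control libraries. With 2 drought counts its ratio of control over drought was 106.5, with an exact 95% interval for counting error of 28.95 to 887.2. LOC_Os07g35630 reached the mean of 10 through control libraries, so this ratio is not free of the rule. Whether these adjacent loci share a transcript or reads was not tested. LOC_Os08g38040 (10, 1, 2 and 3 counts in Swarna drought, 27, 25, 37 and 19 in Swarna control) and LOC_Os06g06640 (11, 9, 12 and 6 in Swarna drought, 29, 22, 27 and 15 in Swarna control) were also lower without overlap, with log2 fold changes of −3.26 and −1.80 and edgeR adjusted p values of 7.9e-05 and 0.00181.

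Of the 10 loci called higher in Swarna, 2 averaged 20 counts or more, were free of overlap and were named for the size of their rise. LOC_Os03g53240 had 92, 106, 64 and 120 counts in Swarna drought and 29, 35, 15 and 18 in Swarna control libraries, or 4.80 ± 1.18 CPM under drought and 1.78 ± 0.725 CPM under control (SD, n = 4 each; log2 fold change 1.43 ± 0.33, edgeR adjusted p 0.00319). LOC_Os08g20885 had 55, 36, 39 and 52 counts in Swarna drought and 8, 11, 1 and 2 in Swarna control libraries (log2 fold change 2.49 ± 0.54, edgeR adjusted p 0.0023). At both loci each drought library was above each control library. LOC_Os06g05320, with 79 drought counts and 1 control count, had a ratio of control over drought of 0.0183 (exact 95% interval for counting error 0.000458 to 0.105). LOC_Os02g26680 had 48, 25, 18 and 12 counts in Swarna drought and 3, 1, 0 and 1 in Swarna control libraries (log2 fold change 3.72 ± 0.70, edgeR adjusted p 0.000399). LOC_Os06g05320 and LOC_Os02g26680 reached the mean of 10 through drought libraries, so these values are not free of the rule.

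The other 6 loci called higher had means of 10.6 to 40.3 counts over the 8 Swarna libraries. LOC_Os08g35770, LOC_Os02g49260, LOC_Os08g40700 and LOC_Os10g32740 did not overlap between treatments and had log2 fold changes of 2.40, 2.18, 1.91 and 1.79. LOC_Os06g18860 (log2 fold change 1.72, edgeR adjusted p 0.0183) and LOC_Os10g32800 (log2 fold change 1.05, edgeR adjusted p 0.0455) overlapped between treatments. LOC_Os06g18860 lost its call without Swarna control 3, Swarna drought 2 or Swarna drought 3, with edgeR adjusted p values of 0.0538, 0.0522 and 0.0791. LOC_Os10g32800 lost it without any one of the 4 Swarna droughts, Swarna controls 1, 3 and 4 or DTY-IL droughts 1 and 4 (edgeR adjusted p 0.0523 to 0.109). With all libraries LOC_Os10g32800 was not called under RLE size factors, without the filter on low counts or by DESeq2 (adjusted p 0.0536, 0.0502 and 0.0552). Of the neighbouring pairs of Swarna, LOC_Os10g32740 and LOC_Os10g32800 were both higher, whereas of the pair LOC_Os08g40615 and LOC_Os08g40700 only the second was called (LOC_Os08g40615, log2 fold change −0.99, edgeR adjusted p 0.103).

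Other loci shifted less than the fold threshold. LOC_Os08g30634, the highest locus of Swarna, had 25.9 ± 4.10 CPM in Swarna drought and 45.4 ± 5.31 CPM in Swarna control (SD, n = 4 each), without overlap (log2 fold change −0.81 ± 0.18, edgeR adjusted p 0.000935). LOC_Os12g35465 had 25.1 ± 3.99 CPM in Swarna drought and 14.32 ± 2.30 CPM in Swarna control (SD, n = 4 each), also without overlap (log2 fold change 0.81 ± 0.23, edgeR adjusted p 0.00649). On the TMM scale the differences at LOC_Os08g30634 and LOC_Os12g35465 were thus of the same size in opposite directions. Their sizes depend on the scaling, with TMM factors of 1.216 to 1.307 in Swarna drought and 0.762 to 0.848 in Swarna control libraries. When scaled by library size alone, LOC_Os12g35465 was called. LOC_Os10g28310, LOC_Os03g05049 and LOC_Os02g24642 had log2 fold changes of 0.03, 0.14 and 0.02 with edgeR adjusted p values of 0.939, 0.634 and 0.973. Most of the abundant loci of DTY-IL were not called either, with log2 fold changes of −0.75 at LOC_Os10g19120, −0.52 at LOC_Os05g30260, 0.77 at LOC_Os08g40410 and −0.25 at LOC_Os03g06835 and edgeR adjusted p values of 0.0733, 0.154, 0.098 and 0.601.

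**Figure D5:**
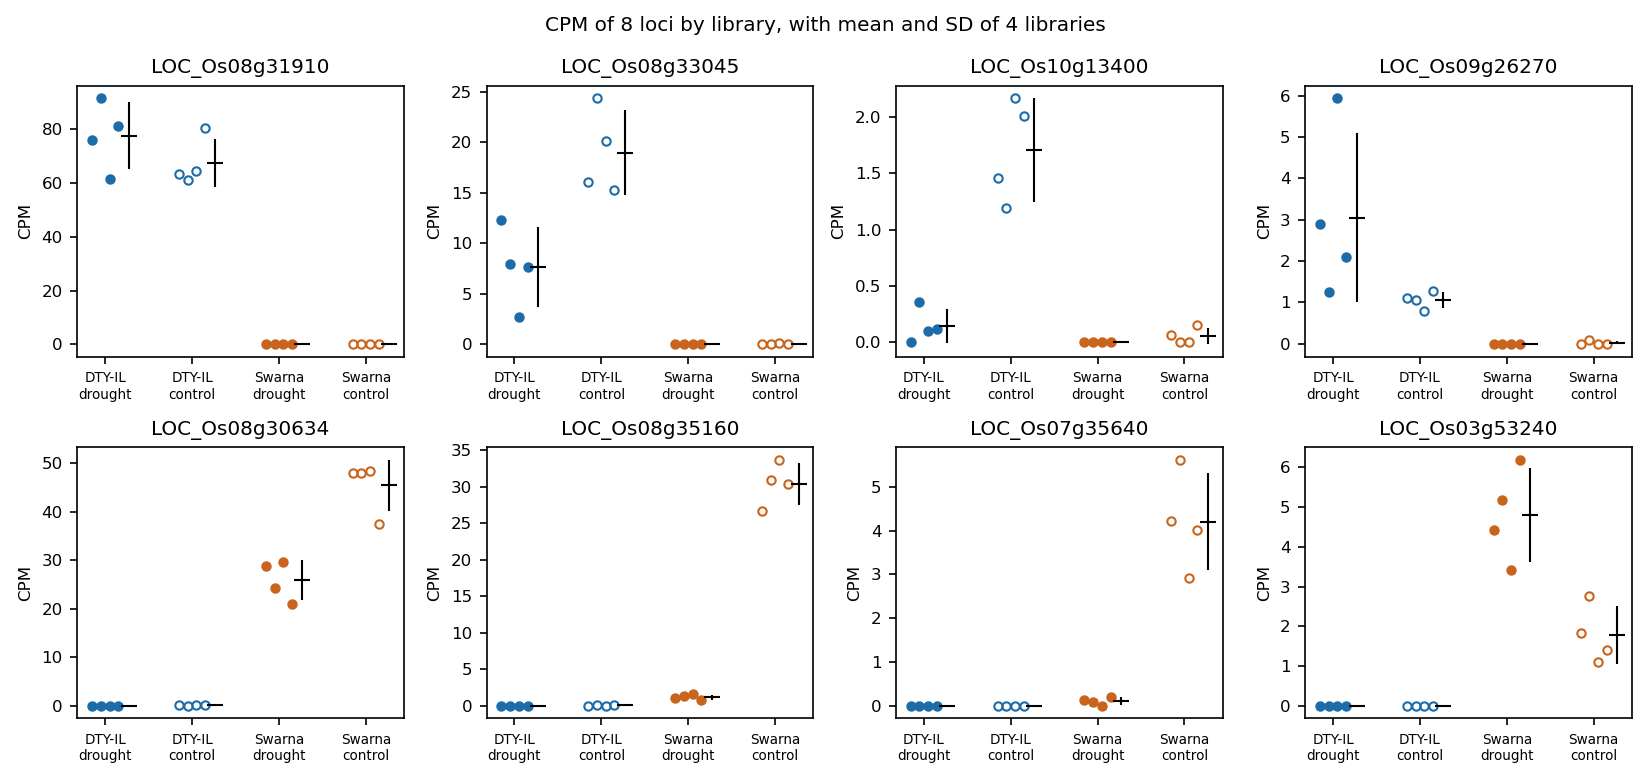
CPM of 8 loci in each library (points; filled, drought; open, control), with the mean and SD of the 4 libraries of a group beside them. The upper row shows loci read in DTY-IL alone and the lower row loci read in Swarna alone, and each panel has its own scale. LOC_Os08g35160 stands at 1.20 CPM in Swarna drought and 30.4 CPM in Swarna control, while LOC_Os08g31910 stands at 77.6 CPM in DTY-IL drought and 67.4 CPM in DTY-IL control.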

How the data were processed

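Flag-leaf RNA of DTY-IL and Swarna was assigned to its 4 groups from the titles. Per the labels and methods, the authors ran Trimmomatic on the read pairs, estimated transcript abundance with Salmon 0.7.2 (bias correction on) against transcripts extracted with Cufflinks 2.2.1 from the *japonica* genome and its MSU annotation, and summed to genes. The deposited table holds the estimated count (expected count) per locus in whole numbers, not normalized. A locus absent from that annotation has no row, and reads too unlike the reference are lost, which lowers counts of divergent alleles. The authors' 4 contrast tables, with log2 fold changes and p-values, were not used.

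Members were found by the rule on these counts. A total of 10 counts was required for testing, which 28283 of 55801 loci met. These entered 1 quasi-likelihood model of the 4 groups with TMM factors (edgeR 4.0.16, R 4.3.3), with two-sided tests and Benjamini-Hochberg adjustment over all of them. The fit was tested on simulated data. Summaries and plots used Python 3.11.15, NumPy 2.4.6, pandas 2.3.3, SciPy 1.17.1 and matplotlib 3.10.9. Intervals cover counting error only. No libraries within a group were copies of each other, since the squared differences of their counts averaged at least 12.4 times the variance of counting error. Per the labels the pots stood in a randomized block layout, and which block or sequencing run a library came from is not given in the sources used here.

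The members, the tests and the lists were chosen with earlier results of these data known. Loci were named by a fixed rule: the 8 highest per genotype, the 5 largest rises and falls among non-overlapping calls averaging 20 counts or more, runs of 3 or more, the 2 nearest each threshold on either side, and the 3 most concentrated in 1 library. The other called loci, the neighbouring pairs, the loci at 0, the stretches of chromosomes and the 5 tested loci on each side were added after values or positions were seen. The alternatives were other thresholds of the rule, scaling by RLE or by library size alone, filterByExpr or no filter, adjusted p alone, glmTreat, a replicate block by title or description numbers, the 8 libraries of a genotype alone, DESeq2 1.42.0, limma-voom (limma 3.58.1) and leaving out each library.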

Additional observations from a re-analysis of the deposited data

Results flagged for a closer look

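In groups of 4 libraries, the highest or lowest library was set apart from the others by Dixon's criterion in 10 of 131 groups of these loci, where chance gives about 1 in 20. In DTY-IL drought, LOC_Os09g29540 stood at 7.30 CPM in DTY-IL drought 2 against 0.390 to 0.710 CPM in the others, and LOC_Os07g47970 stood at 1.20 CPM in DTY-IL drought 1 against 0.797 to 0.831 CPM. In DTY-IL control, LOC_Os08g31910 stood at 80.5 CPM in DTY-IL control 4 against 61.2 to 64.5 CPM. In Swarna drought, LOC_Os10g08720 stood at 8.99 CPM in Swarna drought 2 against 0 in the others. LOC_Os02g24642 stood at 7.52 CPM in Swarna drought 3 against 3.52 to 4.13 CPM, and LOC_Os10g21314 at 1.73 CPM in Swarna drought 1 against 1.28 to 1.34 CPM. In Swarna control, LOC_Os03g03750 stood at 6.49 CPM in Swarna control 2 against 3.09 to 3.63 CPM, and LOC_Os03g05049 at 14.5 CPM in Swarna control 3 against 9.54 to 10.2 CPM. LOC_Os08g30634 stood at 37.5 CPM in Swarna control 4 against 47.9 to 48.4 CPM, and LOC_Os06g05320 at 0.0789 CPM in Swarna control 4, a single count, against 0 in the others.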

How the results depend on the processing

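The number of loci read in DTY-IL alone was 4 with no count allowed in Swarna, 89 with up to 10, 16 for loci averaging 20 counts or more and 6 for 50 or more, against 31 as reported. The number read in Swarna alone was 13, 92, 21 and 9 under the same thresholds, and 21 with more than 3 counts required in each Swarna library, against 35. Counts scaled to a common library size gave 28 and 32. Leaving out 1 library at a time gave 30 to 35 and 31 to 48, the last without DTY-IL control 3. The number called under drought in DTY-IL was 2 with glmTreat and ranged from 4 to 10 when 1 library was left out, and the other alternatives besides the replicate block gave 6 to 12. In Swarna leaving out 1 library gave 15 to 18 called, and the other alternatives 12 to 24. Scaling by library size alone gave 3 higher and 3 lower in DTY-IL, against 2 and 6, and 17 higher and 7 lower in Swarna, against 10 and 7. Of the called loci, 14 of 17 in Swarna and 1 of 8 in DTY-IL (LOC_Os10g13400) kept their call under each of 26 alternatives, glmTreat not among them, and no called locus changed direction. filterByExpr removed LOC_Os03g06460 and LOC_Os06g05320, which have no value there.

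Samples with the same number did not deviate together: correlations of their deviations were −0.00916 to 0.0732 for the numbers in the titles and −0.137 to 0.0362 for those in the descriptions. A replicate block by title number gave 9 called in DTY-IL and 17 in Swarna, without LOC_Os06g18860 (edgeR adjusted p 0.0536). A replicate block by description number gave 3 and 19, and in DTY-IL only 2 numbers occur in both treatments. In DTY-IL that block was without LOC_Os06g16880, LOC_Os08g33045, LOC_Os08g13610, LOC_Os03g03490 and LOC_Os03g06460 (edgeR adjusted p 0.0982, 0.0533, 0.0743, 0.260 and 0.635). Low counts limit most of these loci, since the median member has about 20 counts per library.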
